A study of Mus musculus with 8 samples.

Results

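Entpd1 and Nt5e encode the enzymes that turn ATP outside the cell into adenosine, and their open chromatin was read in mouse bone marrow stromal cells. Both genes were placed by the GENCODE vM1 annotation of the mouse genome build mm9. All ATAC-seq peaks at their start sites, in the gene bodies and within 50 kb on either side were collected. Peaks of different libraries with at least 1 base in common were joined into an element. This gave 27 elements, 17 at Entpd1 and 10 at Nt5e, of 50683 such regions in the genome.

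The material was wild type C57BL/6J mice at 6 weeks of age, without a treatment in the labels. ATAC-seq uses a transposase that cuts accessible DNA and tags it for sequencing, and 7 libraries titled ATAC1 to ATAC7 were called against the same Input library. The study sorted subpopulations of marrow stromal cells with antibodies that included CD39, the product of Entpd1, but the labels do not say which population a title stands for. Each title had 1 library, so every difference below is between libraries, with no replicate and no test. Start-site peaks were called in every library for 4 to 9 of 9 haematopoietic and 1 to 6 of 10 stromal marker genes, beside 42.0% to 52.7% of all protein-coding genes. Pdgfra, whose product was used to gate the stromal fraction, had none in ATAC1 and ATAC3, where 2 and 1 of the stromal and 7 and 9 of the haematopoietic markers were called.

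CD39 is a membrane enzyme with its active site outside the cell, where it takes phosphates from ATP and ADP and leaves AMP. CD73, the product of Nt5e, sits on the cell surface by a lipid anchor and removes the last phosphate, which yields adenosine. CD73 is among the surface antigens by which cultured mesenchymal stromal cells are recognised, and CD39 is well known from regulatory T cells, myeloid cells and endothelium.

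The elements that carry the results are shown first, as the plus strand of mm9, 5′ to 3′. The start-site, intron and upstream runs are 300 bases long. Capitals mark the bases shared by the peaks of the libraries that called the element, or by most of them at the Nt5e start, and at the internal Entpd1 start the bases inside the ATAC1 peak. The first run is chr19:40686661-40686960, where Entpd1 begins beside the gene Tctn3, and it is shown because the start-site peak of all 7 libraries lies there. The next is chr19:40714342-40714641, the intron element called in all libraries. The last is chr19:40734110-40734409, around the start of the Entpd1 transcript with a consensus coding sequence.
Entpd1 start-site element: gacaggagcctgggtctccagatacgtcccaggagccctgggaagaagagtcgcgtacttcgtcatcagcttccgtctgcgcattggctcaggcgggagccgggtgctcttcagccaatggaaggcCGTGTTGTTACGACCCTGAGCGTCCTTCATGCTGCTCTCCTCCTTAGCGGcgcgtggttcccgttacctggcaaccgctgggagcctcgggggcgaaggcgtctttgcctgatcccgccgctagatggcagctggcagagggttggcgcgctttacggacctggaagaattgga
Entpd1 intron element: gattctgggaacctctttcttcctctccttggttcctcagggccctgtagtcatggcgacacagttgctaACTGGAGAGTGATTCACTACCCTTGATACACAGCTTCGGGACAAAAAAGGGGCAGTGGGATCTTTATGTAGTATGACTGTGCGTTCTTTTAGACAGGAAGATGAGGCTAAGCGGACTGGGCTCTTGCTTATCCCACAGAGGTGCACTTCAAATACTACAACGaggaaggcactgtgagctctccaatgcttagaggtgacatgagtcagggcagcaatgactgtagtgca
Entpd1 internal start site: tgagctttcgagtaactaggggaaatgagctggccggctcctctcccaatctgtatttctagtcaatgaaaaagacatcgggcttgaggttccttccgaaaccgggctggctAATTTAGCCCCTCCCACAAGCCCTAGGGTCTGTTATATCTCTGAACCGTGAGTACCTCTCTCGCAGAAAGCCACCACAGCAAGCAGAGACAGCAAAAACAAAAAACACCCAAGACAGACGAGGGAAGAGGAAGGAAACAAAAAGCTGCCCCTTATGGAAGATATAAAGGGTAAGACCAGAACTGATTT

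For Nt5e, the start-site run is chr9:88222349-88222648 and the upstream run is chr9:88191178-88191477. They are shown because the start was open in every library and the upstream element was called in 3.
Nt5e start-site element: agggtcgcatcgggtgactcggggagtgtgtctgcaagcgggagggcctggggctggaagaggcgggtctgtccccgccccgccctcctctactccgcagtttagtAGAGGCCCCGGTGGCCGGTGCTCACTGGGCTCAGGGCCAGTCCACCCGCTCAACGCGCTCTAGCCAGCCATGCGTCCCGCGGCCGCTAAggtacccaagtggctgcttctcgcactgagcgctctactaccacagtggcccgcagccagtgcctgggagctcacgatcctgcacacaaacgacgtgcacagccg
Nt5e upstream element: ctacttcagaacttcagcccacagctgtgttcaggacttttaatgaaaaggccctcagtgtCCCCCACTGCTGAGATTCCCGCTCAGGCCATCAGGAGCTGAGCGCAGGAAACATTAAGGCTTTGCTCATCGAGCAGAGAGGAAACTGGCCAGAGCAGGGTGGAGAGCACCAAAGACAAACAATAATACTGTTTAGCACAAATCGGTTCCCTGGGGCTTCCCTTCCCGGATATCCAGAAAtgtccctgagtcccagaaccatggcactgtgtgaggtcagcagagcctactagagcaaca

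Entpd1 lies at chr19:40686856-40816092 on the plus strand, and its 11 annotated transcripts fall into 5 groups of start sites. The most upstream group, with 3 transcripts, starts between 40686856 and 40686887. The next group, 47404 bases downstream, has 5 transcripts, among them Entpd1-001, the annotated transcript with a consensus coding sequence. Base 151 of the internal start-site run is the start of Entpd1-001, and bases 266 to 268 are its annotated start codon. Transcript Entpd1-003 of the upstream group has its own start codon at bases 251 to 253 of the start-site run. RefSeq places Entpd1 starts at the same first base of both groups, 40686856 and 40734260.

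Entpd1 was open at its upstream start in all 7 libraries, whereas a peak at the internal start was called in ATAC1 only. A start-site peak is one whose centre lies within 1000 bases of an annotated start. The upstream element, chr19:40686497-40687130, held 578 reads in ATAC5 and 507 in ATAC6, then 353 in ATAC2 and 302 in ATAC1, and 219 in ATAC4, 208 in ATAC3 and 192 in ATAC7. Input held 27 to 55 reads in the same stretches. ATAC2 had 2 overlapping peaks there, and the better ranked is given. These peaks were not marginal, since in each library they ranked in the top 39.5% of the list or better.

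The upstream element is also the start of Tctn3, a gene of the ciliary transition zone that is read from the other strand. RefSeq places the Tctn3 start at 40686721. ATAC-seq has no strand, so opening for Entpd1 and for Tctn3 cannot be told apart in this peak.

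At the internal start, the ATAC1 peak at chr19:40734222-40734685 held 61 reads against 17 Input reads, a fold over Input of 4.41. It ranked at 98.9% of the ATAC1 list, so nearly all other ATAC1 peaks were stronger. Of all regions at annotated starts, 27.5% were called in 1 library. None of the libraries had a peak at the starts 69301, 113684 and 123818 bases downstream. Where no peak is listed, the stretch did not pass the authors' threshold, which does not show it to be closed.

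Nt5e has a single annotated transcript at chr9:88222447-88266927 on the plus strand, and its start was open in all 7 libraries. The element at chr9:88222005-88222696 held 534 reads in ATAC2, 483 in ATAC6, 412 in ATAC5, 212 in ATAC1, 180 in ATAC7, 134 in ATAC4 and 115 in ATAC3, against 38 to 80 Input reads. ATAC2, ATAC5 and ATAC6 stood above the other libraries in reads. Within their lists the peaks ranked from 10.1% in ATAC2 to 59.9% in ATAC4 and 70.5% in ATAC3. No other gene starts in this element. In the printed run, base 99 is the annotated start and bases 176 to 178 are the start codon. The 5 libraries ATAC1, ATAC2, ATAC4, ATAC5 and ATAC7 shared the capital bases. The ATAC3 peak was 5 bases long and centred at -115 bases from the start, and the ATAC6 peak was centred at -238 bases.

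An open start in every library was common. Of 22380 protein-coding genes, 36.8% had a start-site peak in all libraries. The share per library was 52.7% in ATAC5 and 51.5% in ATAC6, then 50.2% in ATAC2 and 49.0% in ATAC1, and 43.6% in ATAC4, 43.5% in ATAC3 and 42.0% in ATAC7.

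To compare libraries of unequal depth, reads per kb were divided by the library's median over regions called in all 7, which is called the normalised read density here. Intervals are exact 95% Poisson intervals and cover counting error only. At the upstream Entpd1 start the density was 1.60 in ATAC6 (1.46 to 1.74), 1.41 in ATAC2, 1.35 in ATAC5, 1.19 in ATAC1, 1.10 in ATAC7, 1.05 in ATAC4 and 1.04 in ATAC3 (0.902 to 1.19). Every pair of neighbours in this order had overlapping intervals. The ATAC6 interval lay above those of ATAC1, ATAC3, ATAC4 and ATAC7. Highest over lowest was 1.54, which became 3.12 with the authors' fold and 3.01 with plain reads.

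The Nt5e start had densities of 1.02 in ATAC2 (0.940 to 1.12), 0.933 in ATAC7, 0.897 in ATAC3, 0.853 in ATAC5, 0.837 in ATAC1, 0.832 in ATAC6 and 0.771 in ATAC4 (0.646 to 0.913). Neighbours overlapped again, and the ratio of the extremes was 1.33. The ATAC2 interval lay above those of ATAC4, ATAC6 (0.760 to 0.910) and, narrowly, ATAC5 (0.772 to 0.939). The width over which reads were counted differed widely, from 0.277 kb in ATAC3 to 1.2 kb in ATAC2. A wide stretch can take in flanks with fewer reads, and fold is counted over the same stretch. Density and fold are both given, and the part of width in either was not tested.

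The authors' fold spread the libraries more widely at Nt5e. This fold is reads over Input reads multiplied by a constant of the library, 1.71 in ATAC5, 1.58 in ATAC2 and 1.57 in ATAC6 against 1.01 to 1.23 in the others. It was 10.5 in ATAC2, 9.62 in ATAC6 and 9.28 in ATAC5, but 4.13 in ATAC1, 3.31 in ATAC7, 3.10 in ATAC4 and 3.05 in ATAC3. Without the constant, reads over Input reads were 6.67 in ATAC2, 6.11 in ATAC6 and 5.42 in ATAC5, and 2.73 to 3.37 in the others, so part of the gap was the constant. With a fold of at least 5 required, the Nt5e start kept its peak in these 3 libraries only. Folds differed between libraries for all genes, with medians over the genes' best start-site peaks of 12.4 in ATAC5 and 11.9 in ATAC6, then 8.73 in ATAC2 and 8.63 in ATAC1, and 5.89 to 6.32 in the others. Relative to these medians Nt5e stood at 1.21 in ATAC2, 0.806 in ATAC6 and 0.75 in ATAC5, and at 0.479 to 0.562 in the other 4 libraries. So the group of 3 remained above the others in fold after this scaling, with a highest over lowest of 2.52. The normalised read density at Nt5e did not set it apart. Density over the median of start-site peaks was highest in ATAC2, ATAC5 and ATAC6, with a ratio of the extremes of 1.51. Reads and Input reads were counted over 0.879 to 1.2 kb in these 3 libraries and 0.277 to 0.475 kb in the others. Reads per kb were 444 to 472 in the 3 and 344 to 446 in the others. The part of width in the fold was not tested. Among all genes with a start-site peak, the fold at Nt5e reached the 63.3 percentile in ATAC2, 36.7 in ATAC6 and 31.4 in ATAC5, and lay between 5.64 and 10.0 elsewhere.

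At the upstream Entpd1 start the same 3 libraries were highest by density, reads and fold. The fold was 18.0 in ATAC5, 16.3 in ATAC6 and 11.2 in ATAC2, then 8.63 in ATAC1, 7.85 in ATAC7, 6.36 in ATAC3 and 5.77 in ATAC4. Reads over Input reads, without the constant, were 10.5 in ATAC5 and 10.3 in ATAC6, and 5.09 to 7.11 in the others, with ATAC2 at 7.06 just below ATAC7. Relative to the median fold, a scale added after seeing the data, it stood at 1.45 in ATAC5, 1.36 in ATAC6, 1.33 in ATAC7, 1.28 in ATAC2, 1.08 in ATAC3, 1.00 in ATAC1 and 0.912 in ATAC4.

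**Figure D1:**
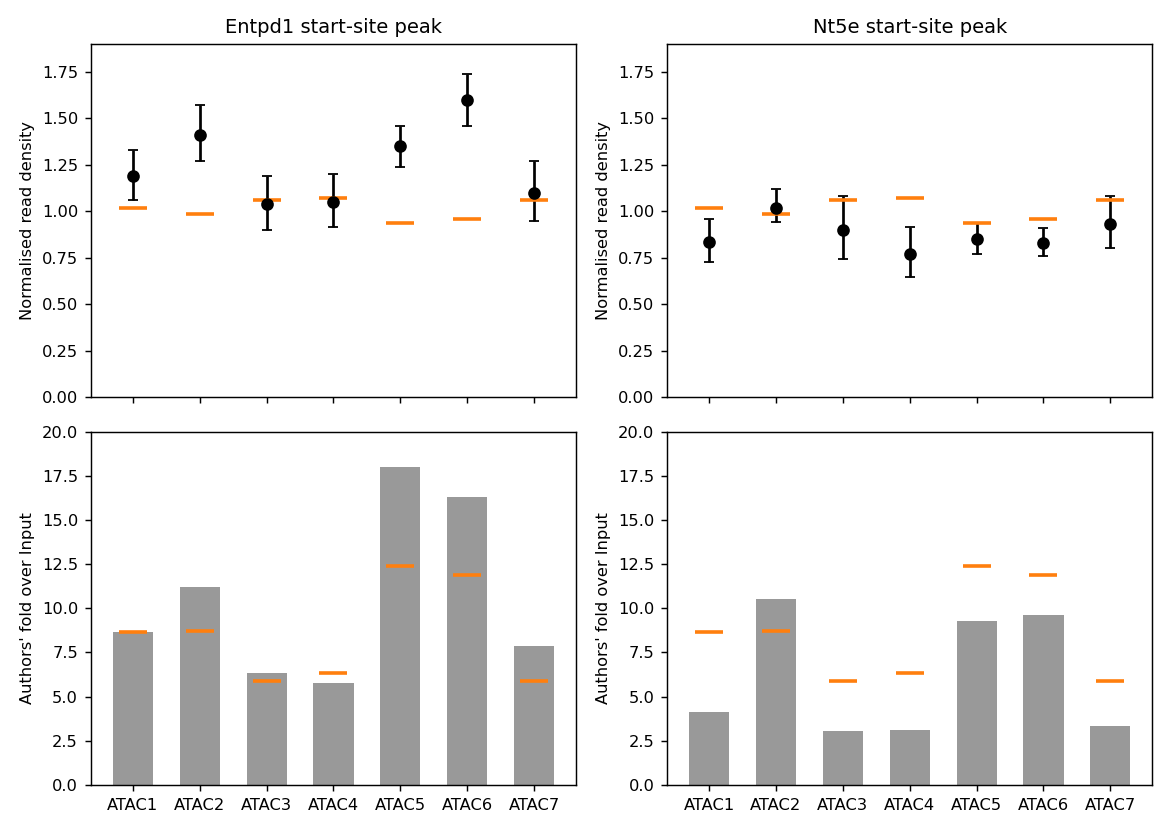
Start-site peaks of Entpd1 (left) and Nt5e (right) in the 7 libraries (horizontal axis). Upper panels give the normalised read density with exact 95% Poisson intervals, lower panels the authors' fold over Input as bars, and orange dashes the library's median over protein-coding genes with a start-site peak. Nt5e lay above the orange dash for fold in ATAC2 only, and Entpd1 lay below it for fold in ATAC4 only, with ATAC1 at 1.00 of it.

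The genes with start-site densities most like those of Entpd1 over the 7 libraries, by Euclidean distance on the log2 scale, were Tctn3 at 0, which shares the peak, Stk3 at 0.188, Ppp1ca at 0.205, Mrps33 at 0.206 and Kdm5c at 0.218. For Nt5e they were Slc25a27 and Cyp39a1, which share a peak, at 0.207, Arc at 0.215, Cbx1 at 0.216 and Aig1 at 0.220. The median distance over the 8238 genes compared was 1.29 from Entpd1 and 1.31 from Nt5e.

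Away from start sites, ATAC1 called the most elements at Entpd1, and ATAC2, the library with the longest list, the most at Nt5e. Entpd1 had 12 elements more than 1000 bases from any annotated start, 10 of them inside the gene. ATAC1 called 8 of the 12, or 66.7%, while it called 31.4% of all 30406 regions away from starts. Of these 8, 4 existed only through ATAC1 calls. With all lists shortened to the 15188 peaks of the shortest, ATAC1 called 4, ATAC3 called 3, ATAC7 called 2, ATAC2 and ATAC4 called 1 each and ATAC5 and ATAC6 none. ATAC2 called 5 of 12 (41.7%) against 53.9% of all regions. ATAC5 called 3 (25.0%) against 51.4%, and ATAC6 called 4 (33.3%) against 44.8%. In the libraries with short lists the shares were close to or above the background. ATAC3 called 3 (25.0%) against 12.7%, ATAC4 called 1 (8.33%) against 11.7% and ATAC7 called 2 (16.7%) against 13.2%.

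At Nt5e there were 9 elements away from starts, and only 2 of them lay inside the gene. ATAC2 called 6 (66.7%) against 53.9% of all regions, and ATAC6 called 5 (55.6%) against 44.8%. ATAC1 called 3 (33.3%) against 31.4%, ATAC5 called 2 (22.2%) against 51.4% and ATAC7 called 1 (11.1%) against 13.2%. ATAC3 and ATAC4 called none of the 9. With so few elements, and background shares of 12.7% and 11.7%, an absence in these libraries is not a result about Nt5e.

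**Figure D2:**
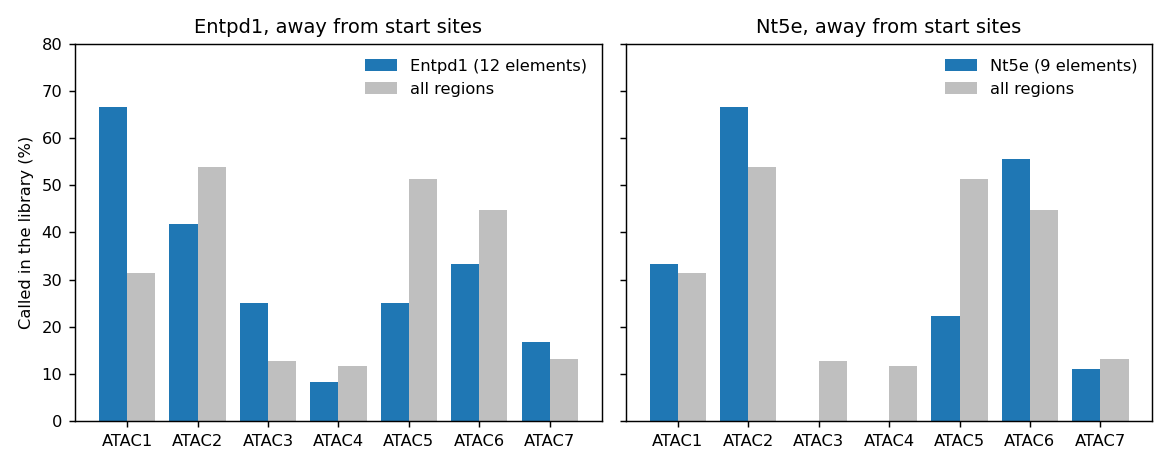
Share of the elements away from start sites that each library called (blue, vertical axis in percent), for the 12 elements of Entpd1 (left) and the 9 of Nt5e (right), beside the share of all 30406 such regions (grey). The blue bar of ATAC1 at Entpd1 reached 66.7% against 31.4%, and ATAC4 and ATAC5 fell short of the grey bar at both genes.

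In an Entpd1 intron, the element at chr19:40714330-40714651, 27.6 kb from the upstream start, was the only element away from starts at either gene that all 7 libraries called. It held 235 reads in ATAC1, 166 in ATAC3, 114 in ATAC7, 90 in ATAC4, 86 in ATAC5, 75 in ATAC2 and 52 in ATAC6. Its density was 0.811 in ATAC3 (0.693 to 0.945) and 0.788 in ATAC1 (0.691 to 0.896), then 0.620 in ATAC7, 0.547 in ATAC4, 0.404 in ATAC5 (0.323 to 0.499), 0.394 in ATAC2 (0.310 to 0.494) and 0.258 in ATAC6 (0.193 to 0.339). The intervals of ATAC1, ATAC3 and ATAC7 lay above those of ATAC2, ATAC5 and ATAC6. By density, the libraries that were highest at the upstream start, ATAC6, ATAC2 and ATAC5, were the lowest at this intron element. Over all peaks away from starts, the median density itself was 0.637 in ATAC7, 0.633 in ATAC4, 0.625 in ATAC3, 0.550 in ATAC2, 0.505 in ATAC1, 0.439 in ATAC5 and 0.426 in ATAC6. Among its library's peaks away from starts, by density, the element reached the 89.9 percentile in ATAC1, 77.6 in ATAC3, 45.9 in ATAC7, 39.0 in ATAC5, 31.7 in ATAC4, 13.5 in ATAC2 and 4.60 in ATAC6. Relative to the median fold of the library's peaks away from starts, the element stood at 1.89 in ATAC3, 1.85 in ATAC1, 1.68 in ATAC4, 1.29 in ATAC7, 1.22 in ATAC5, 0.917 in ATAC6 and 0.808 in ATAC2. ATAC3 and ATAC1 were again highest and ATAC6 and ATAC2 lowest, while ATAC7 and ATAC5 were nearly equal. The folds themselves were 15.2 in ATAC1, 13.4 in ATAC5, 12 in ATAC3, 11.3 in ATAC4, 9.09 in ATAC6, 8.98 in ATAC7 and 8.46 in ATAC2, so the place of ATAC5 and ATAC7 depended on the scale.

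A neighbouring intron element 25.4 kb from the upstream start, chr19:40712129-40712338, was called in ATAC1 with 116 reads, in ATAC3 with 68 and in ATAC7 with 45. These were the 3 libraries with the highest densities at the element 27.6 kb into the gene, although relative to the median fold ATAC4 stood above ATAC7 there. At 25.4 kb the peaks ranked at 55.1% of the list in ATAC1, 86.6% in ATAC3 and 95.3% in ATAC7. Their density percentiles among peaks away from starts were 52.5, 21.0 and 3.53.

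Beyond the internal start, ATAC1 had a series of small peaks that no other library called. They lay 53.6, 66.4, 66.8 and 67.4 kb from the upstream start, 3 of them within 2874 bases of the annotated start 69301 bases downstream. Their reads were 48, 73, 92 and 57, and their folds over Input 4.53, 6.89, 10.3 and 3.89. They are shown whole because they set ATAC1 apart, in capitals since every base lies in the ATAC1 peak, at chr19:40740446-40740474, chr19:40753256-40753309, chr19:40753608-40753678 and chr19:40754266-40754288.
ATAC1 peak at 53.6 kb: TGAGGGTGTGATTCACAAGTATTTTCCAT
ATAC1 peak at 66.4 kb: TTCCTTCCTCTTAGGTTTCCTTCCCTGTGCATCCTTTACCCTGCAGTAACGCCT
ATAC1 peak at 66.8 kb: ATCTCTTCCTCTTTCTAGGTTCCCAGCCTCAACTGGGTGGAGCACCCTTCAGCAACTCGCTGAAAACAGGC
ATAC1 peak at 67.4 kb: CTCCCTCCCCTTCTTCTCAGACA

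Together with the internal start these made 5 elements found in ATAC1 alone, of the 8 Entpd1 elements found in 1 library. Of 1728 protein-coding genes at least as long as Entpd1, 0.579% had 4 or more regions away from starts that ATAC1 alone called. The number 4 is that of Entpd1 itself, so nothing is read from this share. The 5 peaks ranked at 74.5% to 98.9% of the ATAC1 list. By density the 4 away from starts, at 0.612, 0.617, 0.501 and 0.562, reached the 72.5, 73.4, 49.0 and 63.5 percentiles of ATAC1 peaks away from starts. A fold of at least 5 kept 2 of the 5 peaks, and none was among the first 15188 peaks, the length of the shortest list. At the ATAC1 density, the same stretches would have held at least 59 reads in every other library at 66.4 kb and 75 at 66.8 kb, beside a median of 43 to 58 reads in the lowest-ranked 1% of their peaks. At 53.6 kb, at 67.4 kb and at the internal start they would have held at least 39, 46 and 49 reads, and reached that median in 2, 3 and 3 of the 6 other libraries. The peaks with the fewest reads in each list held 21 to 28 reads. Peaks were called against Input and not by reads alone, so these read numbers do not show whether a library would have called a peak. The part of depth in these calls was not tested.

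Further into Entpd1, the element at 71.9 kb held 111 reads in ATAC1 and 24 in ATAC6. The densities were 0.607 (0.499 to 0.731) and 0.226 (0.145 to 0.337), and their intervals did not overlap. At 96.0 kb the reads were 128 in ATAC1, 44 in ATAC2, 70 in ATAC3 and 60 in ATAC5. ATAC1 had the highest density there too, 0.688 (0.574 to 0.818), which overlapped ATAC2 at 0.642 and ATAC3 at 0.607.

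The 3' part of the gene had no ATAC1 peak. An element 110 kb from the upstream start was called in ATAC2 with 81 reads and in ATAC5 with 31, at folds of 31.9 and 26.4 over only 4 and 2 Input reads. Another at 125 kb was called in ATAC2 with 50 reads and ATAC6 with 49. A peak of 104 reads beyond the gene, at chr19:40843999-40844219, was found in ATAC6 alone.

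Upstream of Entpd1, the elements belonged to other genes. The one at -23.9 kb, called in all 7 libraries with 202 to 530 reads, is the start of Aldh18a1, a gene of proline synthesis. Beside it, an element at the start of Gm16765 was called in 6 libraries, all but ATAC4. ATAC2 alone had a small peak of 68 reads between them and 1 of 48 reads in an exon of Tctn3. The peak of 68 reads ends at 40663462, and a peak of ATAC1 in the next element begins at 40663469. Joining peaks within 200 bases, or by their outer bounds, left 7 elements in 1 library at Entpd1 instead of 8.

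**Figure D3:**
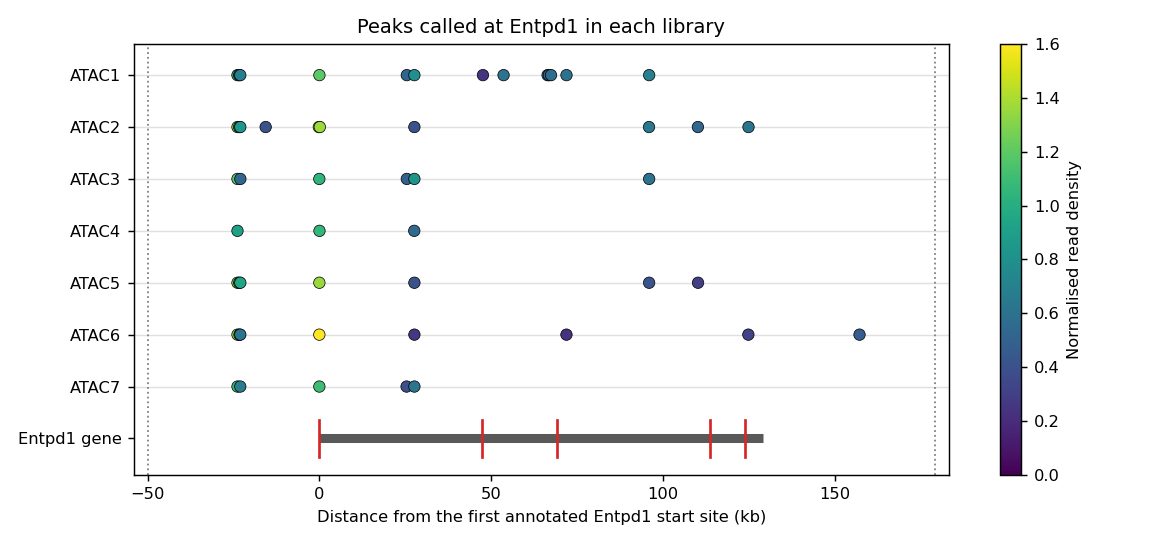
Peaks at Entpd1 in each library (rows), by distance in kb from the upstream start site, with the gene as a grey bar, annotated start groups as red ticks and the 50 kb limits dotted. Colour gives the normalised read density. ATAC1 alone had peaks between 47.6 and 67.4 kb, and all rows share the elements at -23.9, 0 and 27.6 kb.

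Nt5e had its distal element with the most reads and the highest folds upstream, at -31.0 kb, in 3 libraries. The peak at chr9:88191225-88191606 held 512 reads in ATAC2, 239 in ATAC5 and 235 in ATAC6, against 24, 17 and 12 Input reads. The folds of 33.7, 24.1 and 30.8 were at the 94.3, 87.8 and 94.5 percentiles of the peaks away from starts in those libraries. By density ATAC2 stood highest at 0.869 (0.795 to 0.948), then ATAC6 at 0.544 (0.476 to 0.618) and ATAC5 at 0.392 (0.344 to 0.445), with no overlap. The density percentiles among peaks away from starts were 91.0 in ATAC2, 77.7 in ATAC6 and 35.1 in ATAC5. In ATAC5 the density was thus below the median of 0.439 for such peaks. These were the libraries with the highest folds at the Nt5e start. They also have the 3 longest peak lists, and the part of list length in this sharing was not tested.

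Other elements lay around it. ATAC2 alone had peaks at -37.7 kb with 192 reads and at -30.3 kb with 126 reads. The outer region of the latter, in which its reads were counted, overlaps that of the ATAC2 peak at -31.0 kb, so some reads may be in both counts. Joined by outer bounds, Nt5e had 9 elements, 4 of them in 1 library. The element at -34.5 kb was called in 5 libraries, with 56 reads in ATAC1, 78 in ATAC2, 61 in ATAC5, 49 in ATAC6 and 38 in ATAC7. Its folds of 6.98 to 13.7 were 1.00 to 1.31 times the library's median for peaks away from starts, and its peaks ranked between 62.1% and 97.6% of their lists. The density was 0.920 in ATAC7 (0.651 to 1.26), counted over 0.095 kb, and 0.369 to 0.535 in the other 4.

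Close to the promoter, ATAC6 had a peak of 68 reads at -1.40 kb, and an element at 1.52 kb in the Nt5e intron was called in ATAC2 with 83 reads and in ATAC6 with 34. Further in, at 21.2 kb, ATAC1 alone had an intron peak of 51 reads. Apart from the start-site element, no other peak lay inside Nt5e. Past the gene, an element in an intron of Snx14, a sorting nexin gene, was called in ATAC2 with 132 reads and in ATAC6 with 46. ATAC1 alone had a peak of 113 reads in a coding exon of Snx14.

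The 50 kb limit cut through a group of elements upstream of Nt5e. The nearest left out, 50352 bases away, was called in 6 libraries, all but ATAC1, with 46 to 128 reads. Others lay 51164 bases away in ATAC5 and ATAC6, 53125 bases away in ATAC2, ATAC5, ATAC6 and ATAC7, and 54042 bases away in all 7 with 151 to 266 reads. At Entpd1 the nearest regions outside lay 98466 bases upstream, in all 7 libraries, and 72004 bases downstream, in ATAC1 with 57 reads.

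**Figure D4:**
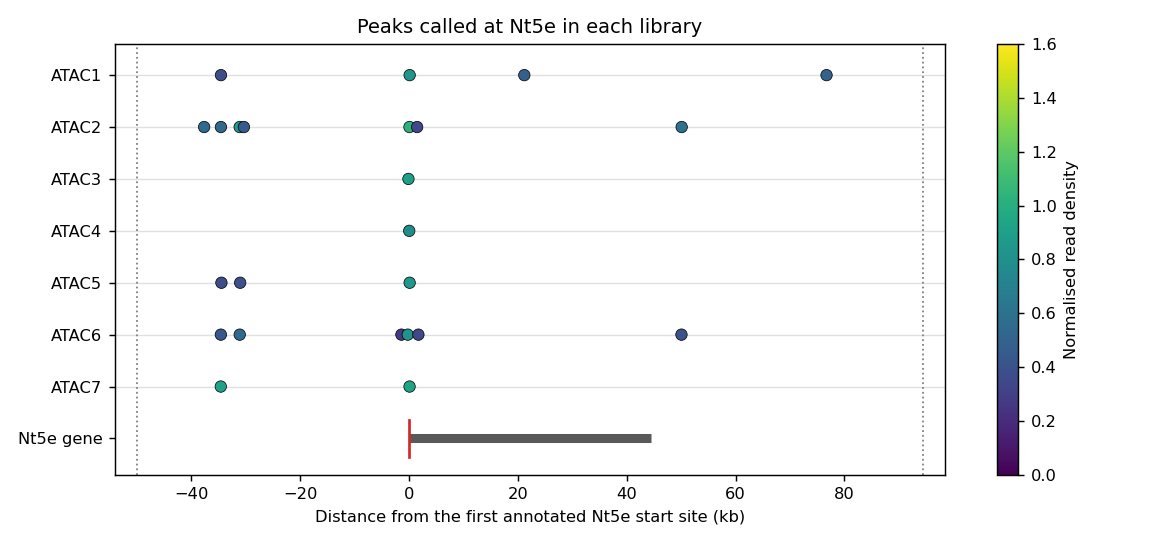
Peaks at Nt5e in each library (rows), by distance in kb from its start site, with the gene as a grey bar, the start as a red tick and the 50 kb limits dotted. Colour gives the normalised read density. Every row has the start-site element, ATAC3 and ATAC4 have nothing else, and the element at -31.0 kb appears in ATAC2, ATAC5 and ATAC6.

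The sequences differed between starts and distal elements, and between the starts themselves. Windows of 300 bases at the middle of each element, which are not the printed runs, were compared with 50677 windows of all regions. The Nt5e start window had 71.0% GC and 23 CpG, and the upstream Entpd1 start window 62.3% GC and 24 CpG, against medians of 62.7% and 21 at start sites. The window at the middle of the internal Entpd1 peak, which lies downstream of the start of Entpd1-001, had 44.7% GC, a higher share than in 4.83% of start-site regions, and 3 CpG. The printed runs had 48% GC and 8 CpG around that start, and 67.3% GC and 24 CpG at the Nt5e start.

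A search on both strands for short motifs named by the factors known to bind them found few matches that stood out. The Sp or GC box, GGGCGG, occurred 4 times in the Nt5e start window and not in the Entpd1 start windows, and 2 times in the printed Nt5e start run. It was in 57.7% of start-site windows. The AP-1 site, TGANTCA, was in 5 of the 12 Entpd1 windows and 4 of the 9 Nt5e windows away from starts, where 30.0% of all windows held it. In the printed runs it stands at bases 80 to 86 and 272 to 278 of the Entpd1 intron element, and at bases 9 to 15 of the ATAC1 peak at 53.6 kb. The first of these lies in the capital bases that all 7 libraries shared.

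The other motifs searched are given by the number of windows that held them. The RUNX site, TGTGGT, was in 1 Entpd1 window and 3 Nt5e windows, against 30.6% of windows away from starts. The E-box, CANNTG, was in 16 and 7 windows, against 73.5% of all windows. The GATA core, AGATAA, was in 2 and 1 windows (8.66% of all), and the hypoxia element, ACGTG, which can overlap an E-box, in 3 and 1 (19.9%). The ETS core, CCGGAAG, was in 1 Entpd1 window and no Nt5e window (6.38%), and the CRE, TGACGTCA, in no Entpd1 window and 1 Nt5e window (1.26%). A match is a description of letters and not of binding.

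The other genes of the pathway were taken from a list of 48 purinergic genes, those that make, remove or sense nucleotides and adenosine, with Entpd1 and Nt5e among them. A start-site peak was found in all 7 libraries for 17 (35.4%), in some for 14 and in none for 17 (35.4%). Over all protein-coding genes 36.8% had one in all libraries and 43.4% in none, so the list was close to the background. Libraries called from 19 genes in ATAC3 (39.6%) to 28 in ATAC5 (58.3%), beside 43.5% and 52.7% of all protein-coding genes.

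Among the enzymes that act on ATP and ADP outside the cell, Entpd1 and Enpp1, an enzyme that yields pyrophosphate from ATP, were called in all 7 libraries. Enpp1 had densities of 0.685 to 0.771. Alpl, the tissue-nonspecific alkaline phosphatase of bone, was called in ATAC5 with 63 reads and ATAC6 with 120. Entpd2, a close relative of Entpd1 on the cell surface, had a peak of 89 reads in ATAC5 alone. The surface enzymes Entpd3 and Entpd8 had none, nor had Enpp3. All 4 intracellular relatives, Entpd4, Entpd5, Entpd6 and Entpd7, were called in all 7 libraries, with the start of Gm16677 in the Entpd4 peak and that of 2900006K08Rik in the Entpd5 peak.

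For AMP outside the cell, Nt5e was called in all libraries, and Acpp, prostatic acid phosphatase, in ATAC1 alone with 73 reads. Of the 6 nucleotidases that work inside the cell, Nt5c2, Nt5c3 and Nt5m were called in all 7. Nt5c3 had the densest peak, 1.86 to 2.66, and the Nt5m peak is shared with Cops3. Nt5c was called in all but ATAC2.

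Of the 7 genes that remove or carry adenosine, 3 were called in all libraries, 3 in some and 1 in none. Adk, adenosine kinase, Pnp, a nucleoside phosphorylase, and the transporter Slc29a2 were the 3 called in all, the Adk peak being also the start of Ap3m1. Slc29a1, another equilibrative transporter, was called in all but ATAC3. Ada, adenosine deaminase, was called in ATAC2 with 58 reads and ATAC6 with 103, Dpp4, which binds adenosine deaminase at the cell surface, in ATAC1 with 106 and ATAC5 with 49, and the transporter Slc28a2 in none.

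Of the 4 adenosine receptors, Adora1 and Adora3 had no start-site peak. Adora2a was called in ATAC5 alone with 57 reads, and Adora2b in ATAC1 with 72, ATAC5 with 75 and ATAC6 with 112. The folds over Input were 2.96 to 6.08, and the peaks ranked at 48.5% to 65.1% of their lists.

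Of 7 P2X channels, receptors for ATP, 3 were called in no library. P2rx4 was called in all libraries, as was P2rx3, whose peak is the start of Ssrp1. P2rx5 had a peak in ATAC2 alone with 93 reads, and P2rx6, whose peak is also the start of 4930451C15Rik, was called in ATAC2, ATAC5 and ATAC6. Of 7 P2Y receptors, P2ry2 was called in all, P2ry1 in all but ATAC2, and the other 5 in none. For ATP release, the channel gene Panx1 was called in all 7 and Gja1, connexin 43, in all but ATAC3 and ATAC4. Of the NAD-consuming enzymes, Cd38 was called in ATAC2 and ATAC5 and Bst1 in none.

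**Figure D5:**
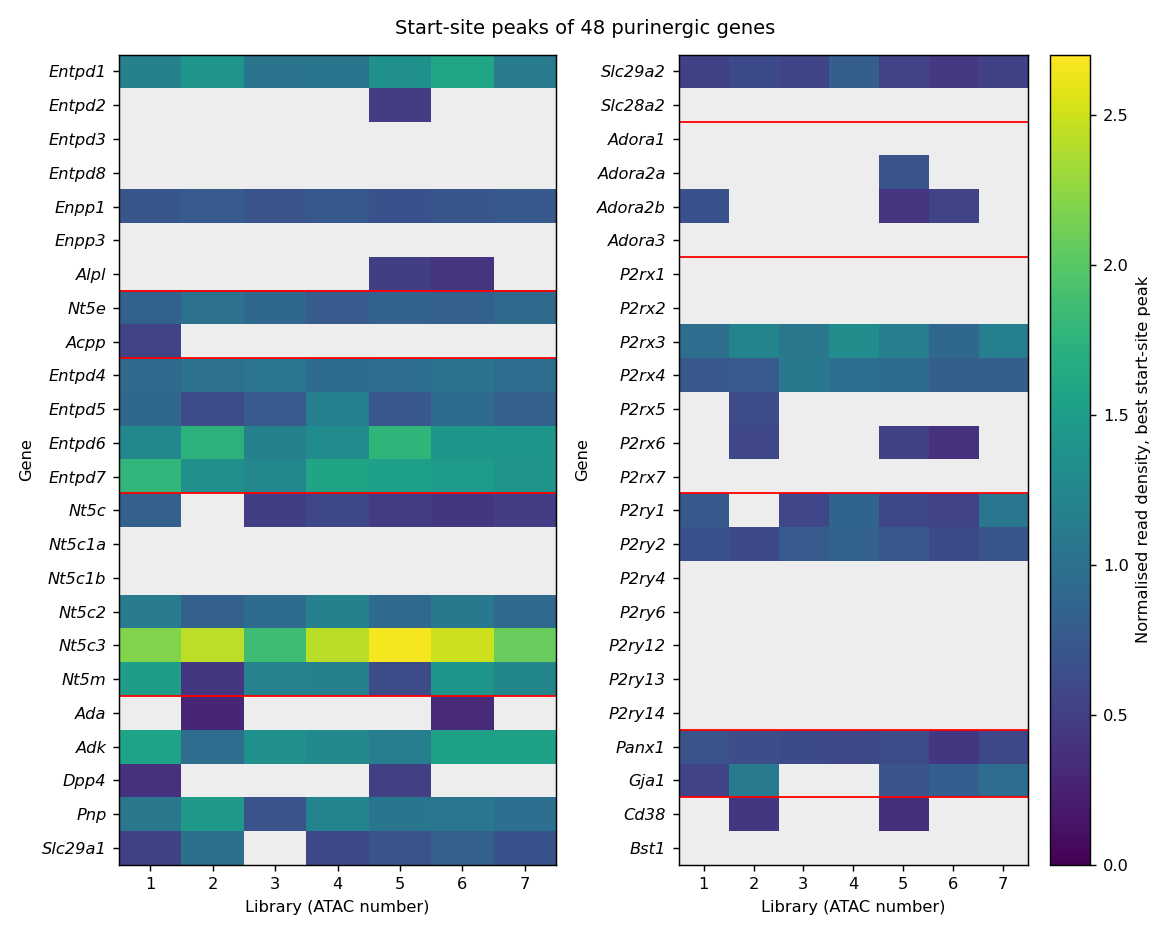
Normalised read density of the best start-site peak of the 48 purinergic genes (rows) in ATAC1 to ATAC7 (columns), with grey where no peak was called and red lines between functional groups. Entpd1 and Nt5e are filled in every column, as are 15 other genes, and Adora1, Adora3 and most P2Y receptors are grey throughout.

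Markers of stromal and other marrow cells were called in differing numbers between libraries. Of 10 stromal markers, 2, 6, 1, 1, 6, 4 and 4 had a start-site peak in the libraries in order of their titles. Of 9 annotated haematopoietic markers the counts were 7, 4, 9, 5, 9, 6 and 4, with Ptprc, the CD45 gene, called in ATAC1, ATAC3, ATAC5 and ATAC7. Erythroid markers were called in 8, 5, 3, 8, 5, 7 and 3 of 10, and endothelial markers in 3 of 10 in ATAC5, 1 in ATAC6 and 0 in the others. Over all protein-coding genes the shares in the same order were 49.0%, 50.2%, 43.5%, 43.6%, 52.7%, 51.5% and 42.0%, and several of the marker counts lay near them. Per the study's methods, the sort selected cells negative for CD31, CD45 and TER119. The part of other cells in the peaks at Entpd1 and Nt5e was not tested.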

How the data were processed

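ATAC-seq peak lists of 7 libraries were used. Per the study's methods, the authors mapped reads to mm9 (bowtie) and ran CisGenome on each library in two-sample mode against Input (p limit 1e-05, FDR under 0.01). Transposase shift and duplicate removal were not given in the sources used here. The deposited tables have no header, and columns were identified from their values. The authors' tables give whole-number read counts of library and Input over an outer region, a fold over Input (the ratio of reads to Input reads plus 0.01, multiplied by a constant of each library that the values give as 1.01 to 1.71), and a peak statistic and window signal that were not tested. The lists held 15188 to 32280 peaks, with medians of 111 to 169 reads.

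Peaks sharing at least 1 base were joined into elements. Reads per kb of the outer region were divided by the library median over the 8428 regions called in all libraries. Intervals are exact Poisson, 95%. With 1 library per title no test was run. Coordinates are as deposited. Gene positions come from GENCODE vM1, sequences from NCBIM37 (mm9), and RefSeq promoters of Entpd1, Nt5e and Tctn3 were matched to it by sequence, 4 of 4. Joining and counting were tested on simulated data. Versions were 3.11.15 for Python, 3.10.9 for matplotlib, 2.4.6 for numpy, 1.17.1 for scipy and 2.3.3 for pandas. Total depth per library was not used here.

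The genes, the purinergic, marker and motif lists were chosen with earlier results of these data known. Purinergic genes called in some libraries were named by the fewest and most libraries, and the genes most like each start by distance. Alternatives were a fold of at least 5, equal peak numbers, joining within 200 bases, outer bounds, 20 and 100 kb limits, start windows of 500 and 2000 bases, and other measures of level. Alpl, Ada, Dpp4, Adora2b, P2rx6, Gja1 and Cd38 were named beyond that rule, after their values were seen.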

Additional observations from a re-analysis of the deposited data

How the results depend on the processing

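With peaks of a fold of at least 5, the Nt5e start was called in 3 libraries, so 0 Nt5e elements were in all 7, and 9 purinergic genes were called in all. With equal peak numbers, Entpd1 had 10 elements, 4 of them in 1 library, and Nt5e had 6. Within 20 kb Nt5e had 5 elements, 2 of them in 1 library. Within 100 kb it had 17, with 3 in all libraries, and Entpd1 had 5 in all. The highest over lowest level at the Entpd1 start was 3.12 by fold, 3.01 by reads and 1.98 by density over the median of start-site peaks. At the Nt5e start it was 3.45 by fold, 4.64 by reads and 2.52 by fold over the median fold of start-site peaks, an alternative added after seeing the data. The other 43 values, of 60 recomputed, stayed within 1.5 times the main count or within counting error of the main ratio. Among them were the Entpd1 elements in all 7 libraries, 2 instead of 3 with equal peak numbers. With 1 library a title, no replicate could be left out. No paired analysis was possible because replicates were lacking. The part of depth in the calls of small peaks was not tested.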
